A study of Mus musculus with 9 samples.

Results

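The oxidant and mediator enzymes of activated microglia were followed as a set of 9 genes in primary mouse microglia after knockdown of Chd8 or Tsc2. They were Nos2, Arg1, Acod1, Ptgs2, Ptges, Cybb, Cyba, Ncf1, and Ncf4, chosen by name, and the counts of all annotated transcripts of each gene were summed. These 9 genes are among 54119 genes with a transcript in the deposited table, and 8 of the 9 passed the filter on low counts, as did 16273 genes in all. Arg1 did not pass. The RNA-seq comprised 9 libraries of total RNA from C57BL/6J primary microglia: control siRNA (n = 3), siRNA to Chd8 (n = 3), and siRNA to Tsc2 (n = 3), numbered 1 to 3 in each group. The cells came from mixed glial cultures of E18 brains, and a small interfering RNA (siRNA), which lowers the mRNA it matches, was given to all 3 groups with a lipid reagent, so that the controls share the transfection. Stimulation with lipopolysaccharide (LPS), a component of the bacterial cell wall, for 3 days is named in the study's results but not in the sample labels, and its methods time the RNA by the 3 days of siRNA. No library of resting microglia was compared, so that induction of these genes was not measured.

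When microglia or macrophages sense bacterial products, they make short-lived reactive molecules and lipid signals. Nos2 encodes the inducible nitric oxide synthase, which makes nitric oxide from arginine, and Arg1 encodes arginase, which consumes the same arginine and is known from alternatively activated macrophages. Acod1 makes itaconate from a citrate cycle intermediate in mitochondria. Ptgs2 encodes the inducible cyclooxygenase and Ptges the inducible terminal synthase, which act in sequence to make prostaglandin E. Cybb and Cyba encode the membrane subunits of the phagocyte NADPH oxidase, which makes superoxide, and Ncf1 and Ncf4 encode cytosolic subunits that join the complex when it is active.

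In GENCODE coordinates of GRCm38, Nos2 is on chromosome 11 (78920787 to 78960254), Acod1 on 14 (103046977 to 103056573), Ptgs2 on 1 (150100031 to 150108227), Ptges on 2 (30889471 to 30929863), Cybb on X (9435252 to 9487771), Ncf1 on 5 (134220053 to 134229625), Ncf4 on 15 (78244801 to 78262580), Cyba on 8 (122424776 to 122432930), and Arg1 on 10 (24915221 to 24927484). Promoter sequences were read from a RefSeq table of the GRCm38.p6 assembly, which held 6 of the 9 genes: Acod1, Ptgs2, Ptges, Cybb, Cyba, and Ncf1. The 250 bases before the RefSeq start are shown for 4 of them, Ptgs2 as the enzyme gene with the lowest FDR after Tsc2 knockdown, Acod1 as the most abundant member, and Cybb and Ncf1 as an oxidase subunit from the membrane and one from the cytosol. They are written on the strand of the gene, 5′ to 3′, and capitals mark matches to 6 motifs. Both strands were searched, for NF-kB as GGGNNTNNCC, for C/EBP as TTGCNNAA, for AP-1 as TGANTCA, for ETS, the family of PU.1, as GAGGAA, for ISRE, the interferon response element, as GAAANNGAAA, and for the TATA box as TATAAA. No match overlapped with a match of another motif in these windows. The windows are chr14:103046762-103047011 on the plus strand for Acod1, chr1:150099781-150100030 on the plus strand for Ptgs2, chrX:9469325-9469574 on the minus strand for Cybb, and chr5:134229626-134229875 on the minus strand for Ncf1.
Acod1: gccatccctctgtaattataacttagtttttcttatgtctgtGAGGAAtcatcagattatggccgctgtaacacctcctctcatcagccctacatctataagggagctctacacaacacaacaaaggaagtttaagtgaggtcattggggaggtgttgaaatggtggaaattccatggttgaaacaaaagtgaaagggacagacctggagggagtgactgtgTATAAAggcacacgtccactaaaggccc
Ptgs2: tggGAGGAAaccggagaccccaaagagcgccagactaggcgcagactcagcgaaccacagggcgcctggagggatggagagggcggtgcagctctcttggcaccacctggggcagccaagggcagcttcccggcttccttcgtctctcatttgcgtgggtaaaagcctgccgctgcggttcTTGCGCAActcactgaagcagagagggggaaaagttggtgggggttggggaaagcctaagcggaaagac
Cybb: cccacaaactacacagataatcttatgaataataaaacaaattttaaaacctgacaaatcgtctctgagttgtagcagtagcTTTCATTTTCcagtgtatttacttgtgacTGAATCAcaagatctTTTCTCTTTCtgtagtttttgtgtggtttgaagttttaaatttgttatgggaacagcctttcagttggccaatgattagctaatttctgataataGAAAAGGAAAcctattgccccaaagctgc
Ncf1: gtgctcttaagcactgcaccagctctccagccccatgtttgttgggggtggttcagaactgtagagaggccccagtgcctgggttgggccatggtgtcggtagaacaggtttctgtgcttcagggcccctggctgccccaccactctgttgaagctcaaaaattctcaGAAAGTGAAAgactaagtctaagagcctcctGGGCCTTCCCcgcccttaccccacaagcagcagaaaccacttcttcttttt

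Counted back from -1 at the last base before the start, Acod1 held a TATA box from -28 and an ETS match from -208. Ptgs2 held a C/EBP match from -69, which reads the same on both strands, and an ETS match from -247. In Cybb, 3 ISRE matches began at -168, -124, and -29, and an AP-1 match began at -139. An ISRE match from -82 and an NF-kB match from -51 were found in Ncf1. Of the promoters not shown, Ptges held an NF-kB match from -38 and an ETS match from -149, and Cyba held a match to none of the 6 motifs. Among the 32544 distinct promoter windows of the table, 16.0% held the NF-kB letters, 9.58% the C/EBP letters, 6.73% the AP-1 letters, 23.4% the ETS letters, 2.98% the ISRE letters, and 12.3% the TATA letters. A match describes the letters only. By the GENCODE coordinates, the windows of Cybb and Ptges lie inside the gene. That of Acod1 runs past the GENCODE start, and its TATA match lies beyond that start. The other promoters of the 9 genes, those of Nos2, Arg1, and Ncf4, were not analysed here.

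Estimated counts per library summed to between 16913005 and 33213477, and 3 counts, taken as the floor of detection, were between 0.0906 and 0.178 CPM (counts scaled by the total of the library), for counting error only. The targeted genes were checked first, in normalized CPM, which are counts scaled to a common library size with edgeR's TMM factors. Chd8 was at 118, 97.4, and 93.6 with control siRNA (numbers 1 to 3) and at 86.8, 44.5, and 38.3 after Chd8 siRNA. Tsc2 was at 40.8, 39.9, and 38.9 with control siRNA and at 24.6, 30.6, and 36.5 after Tsc2 siRNA. Neither targeted gene overlapped with its controls, but Tsc2 siRNA library 3 stood close to them. With the replicate number as a block (explained with the tests), the log2 fold change was −0.93 for Chd8 (SE 0.14, FDR 0.00777) and −0.39 for Tsc2 (SE 0.12, FDR 0.219), so that the decrease of Tsc2 did not pass the test. Microglial markers were present, with Csf1r between 405 and 572 and C1qb between 612 and 866 normalized CPM, whereas Tmem119 reached only 1.11 and P2ry12 only 2.78. Neutrophils share several of these enzymes, and of 8 neutrophil markers 4, among them Ly6g and Elane, had 0 counts throughout, the sum of all 8 being between 0 and 1.89 normalized CPM.

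The 9 genes together took between 1.00% and 1.35% of the counts in a library. For a comparison between genes, levels were divided by transcript length (TPM, in which each library sums to the same total). Acod1 had the highest level, 741 ± 64.8 TPM with control siRNA (SD, n = 3), and ranked 33 among all genes by its mean over the 9 libraries. Ptgs2 followed with 479 ± 58.7 TPM and Cybb with 286 ± 45.9 TPM. Ptges was at 114 ± 8.12 TPM, Nos2 at 111 ± 23.6 TPM, Cyba at 73.3 ± 9.72 TPM, Ncf1 at 58.5 ± 10.2 TPM, and Ncf4 at 40.2 ± 5.71 TPM. Ncf4, the lowest of the 8 genes tested, still ranked 880 among all genes.

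The order of the levels per length was stable at its top. The lowest Acod1 level, 622 TPM, was above the highest Ptgs2 level, 541 TPM, and the lowest Cybb level, 238 TPM, was above the highest Ptges level, 131 TPM. Ptgs2 and Cybb overlapped across libraries, but Ptgs2 was higher than Cybb within each of the 9 libraries. Cyba was above Ncf1 and Ncf1 above Ncf4 in 9 of 9 libraries as well. Nos2 had no fixed place: it was lower than Ptges in 7 of 9 libraries and higher than Cyba in 6 of 9.

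**Figure D1:**
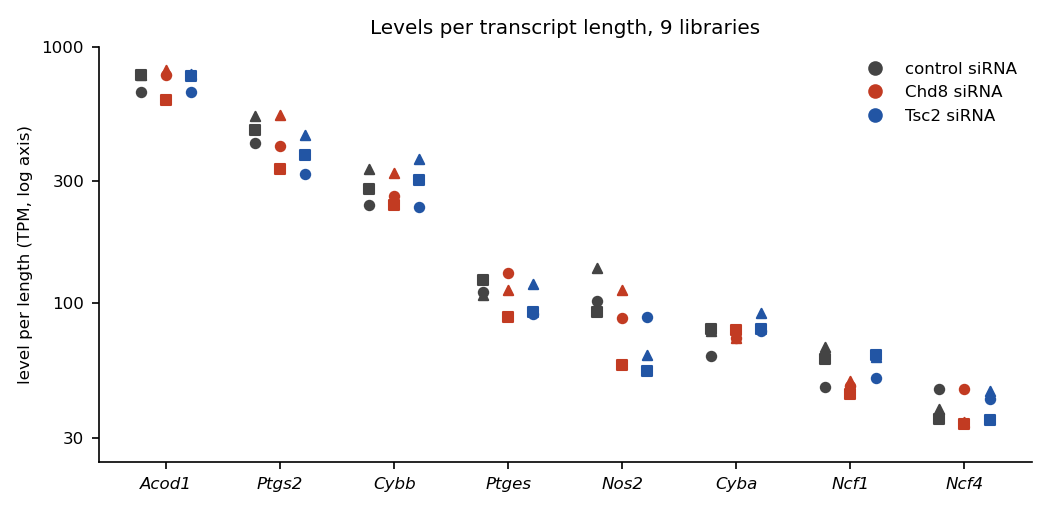
Levels of 8 enzyme genes per transcript length (TPM, log axis), 1 point for each of the 9 libraries, coloured by siRNA, with circles, squares, and triangles for replicate numbers 1, 2, and 3. Acod1 is between 622 and 811 TPM and Ncf4 between 33.9 and 46.5 TPM, and Nos2 spans the levels of its neighbours.

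Arg1 was practically absent. It had 0 counts in the 3 control siRNA and the 3 Chd8 siRNA libraries, and 1, 2, and 3 counts after Tsc2 siRNA 1 to 3. These counts are at or under the floor of 3 counts, so that no fold was computed. Arg2, the mitochondrial arginase, was measured at a low level, 5.36 ± 3.26 TPM with control siRNA. The constitutive cyclooxygenase Ptgs1 was at 0.130 ± 0.0708 TPM there, against 479 ± 58.7 TPM of Ptgs2, and the other prostaglandin E synthases Ptges2 and Ptges3 were at 1.13 ± 0.426 and 27.8 ± 1.10 TPM.

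Each comparison asked whether knockdown of an autism-related gene in microglia shifted these enzymes, and was tested in one fit over all 9 libraries with edgeR's quasi-likelihood test. The false discovery rate (FDR) is the p-value adjusted by the Benjamini-Hochberg method over 16273 genes, and calls needed an FDR under 0.05 and at least a 1.5-fold change. With siRNA as the only factor, 0% of genes were called in either knockdown or between them, and so were 0 of the 8 enzyme genes. At an unadjusted p under 0.05 there were 622 genes for Chd8 siRNA, 425 for Tsc2 siRNA, and 504 between the knockdowns, and DESeq2 called 9, 6, and 5, and limma-voom 0. Libraries with the same replicate number deviated together, and with the number as a block 0.535% of genes were called for Chd8 siRNA, 0.387% for Tsc2 siRNA, and 0.221% for Tsc2 siRNA against Chd8 siRNA. Among the 8 enzyme genes, 0, 1, and 0 were called in these 3 comparisons. DESeq2 with the block called 0, 0, and 0 of the 8 and limma-voom with the block 0, 1, and 0. In bulk RNA, fewer cells that express a gene cannot be told apart from less of its mRNA per cell.

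Nos2 was the enzyme gene that differed most. It was at 796, 837, and 1023 normalized CPM with control siRNA (numbers 1 to 3), at 631, 589, and 831 after Chd8 siRNA, and at 673, 459.6, and 426 after Tsc2 siRNA. Every Tsc2 siRNA library was below every control siRNA library, as were 4.23% of all genes tested and, among the enzyme genes, Ptgs2, whereas the Chd8 siRNA libraries overlapped with both groups. With Chd8 siRNA, 4.92% of all genes and 0 of the 8 enzyme genes lay below every control library. With the block, Nos2 fell by 0.77 on the log2 scale in Tsc2 siRNA-treated microglia (SE 0.14, FDR 0.0202), to a fold of 0.586. Without the block the estimate was the same, −0.77 (SE 0.20), with an FDR of 1.00 and an unadjusted p of 0.00361 from the fit across all genes. The exact permutation test of the 6 libraries gave p = 0.1, the smallest that 3 against 3 allows, and 0.8 after adjustment over 24 such tests.

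The call for Nos2 depended on the tool and on single libraries. DESeq2 with the block gave an FDR of 0.0827 and limma-voom with the block 0.00181. With each library left out in turn under the block, the log2 fold change stayed between −1.04 and −0.53 and was called in 2 of 6 fits; the call was lost without Tsc2 siRNA library 2 or 3 and without control siRNA library 2 or 3, with FDRs up to 0.201.

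The decrease of Nos2 was uneven across replicate numbers. Against the control library of the same number, the log2 difference was −0.24 at number 1, −0.86 at number 2, and −1.26 at number 3. The differences of Tsc2 itself ran in the other order, −0.72, −0.38, and −0.09. Number 3, where Nos2 differed most, was therefore the number with the smallest difference in Tsc2 mRNA, and this order was not tested. In Chd8 siRNA-treated microglia, Nos2 differed by −0.34, −0.51, and −0.30, and Chd8 by −0.44, −1.12, and −1.28. The fitted log2 fold change of Nos2 for Chd8 siRNA was −0.38 (SE 0.14, FDR 0.251 with the block). Between the knockdowns it was −0.39 (SE 0.14, FDR 0.310), so that the difference between Tsc2 and Chd8 siRNA in Nos2 did not pass the test; with a library left out it ranged from −0.67 without Tsc2 siRNA library 1, where it was called (FDR 0.00528), to −0.14 without Tsc2 siRNA library 3 (FDR 0.865).

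**Figure D2:**
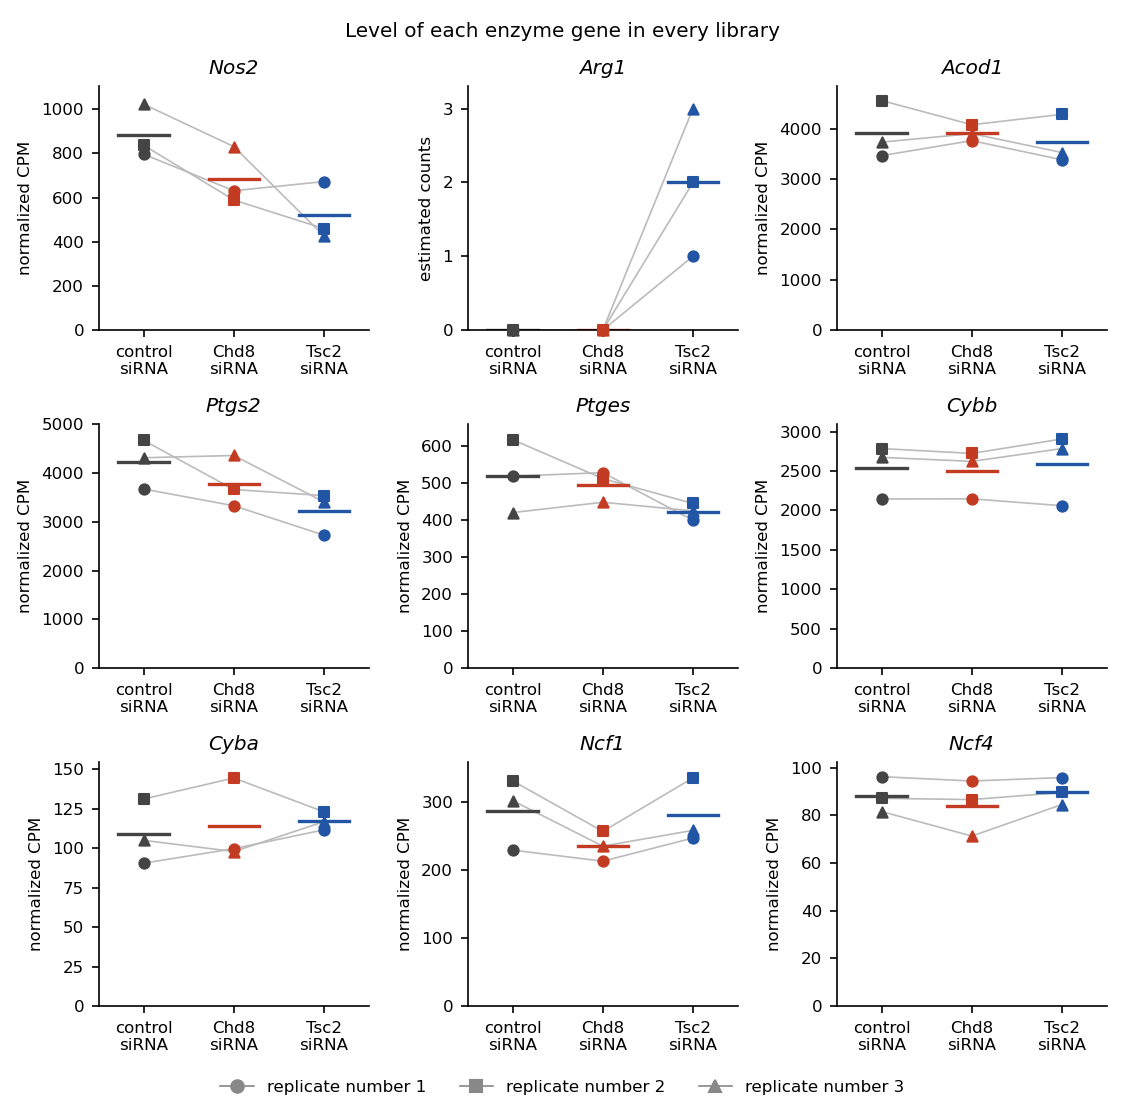
Normalized CPM of 8 enzyme genes and estimated counts of Arg1 in every library, by siRNA, with the mean of each group as a bar and lines joining libraries of the same replicate number. Nos2 and Ptgs2 are lower in all 3 Tsc2 siRNA libraries than in all 3 control siRNA libraries, and Cybb is lowest at number 1 in every group.

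Ptgs2 was lower in Tsc2 siRNA-treated microglia at each replicate number. Its levels were 3671, 4667, and 4312 normalized CPM with control siRNA, 3328, 3661, and 4358 after Chd8 siRNA, and 2725, 3536, and 3406 after Tsc2 siRNA. The Tsc2 siRNA libraries lay below all control libraries, while library 3 of Chd8 siRNA was as high as its control. With the block, the log2 fold change of Ptgs2 for Tsc2 siRNA was −0.39 (SE 0.07, FDR 0.0116), a fold of 0.763 that was short of the 1.5-fold threshold. At any fold, 0.639% of all genes passed the FDR in this comparison, and 2 of the 8 enzyme genes did, Nos2 and Ptgs2. For Chd8 siRNA the share was 1.04%, and 0 of the 8 passed. The differences within numbers, −0.43, −0.40, and −0.34, were close to each other. DESeq2 and limma-voom with the block gave FDRs of 9.68e-05 and 0.000402. Without the block the FDR of Ptgs2 was 1.00 in edgeR, DESeq2, and limma-voom (log2 fold change −0.39, SE 0.16, in edgeR). When single libraries were left out under the block, the log2 fold change ranged from −0.44 to −0.34, and the FDR was over 0.05, up to 0.123, without Tsc2 siRNA library 2 or 3 or control siRNA library 2 or 3. Per length, the groups overlapped, at 479 ± 58.7 TPM with control siRNA and 384 ± 66.1 TPM after Tsc2 siRNA (SD, n = 3).

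For Chd8 siRNA, Ptgs2 had a log2 fold change of −0.16 (SE 0.07, FDR 0.314 with the block), and between −0.22 and −0.064 with a library left out, the latter without Chd8 siRNA library 2. Between Tsc2 and Chd8 siRNA it was −0.23 (SE 0.07), with an FDR of 0.151 in edgeR, 0.0499 in DESeq2, and 0.0259 in limma-voom, all with the block. With a library left out in edgeR, this difference ranged from −0.32 to −0.15, with FDRs from 0.113 to 0.754. Ptges, downstream of Ptgs2 in the same pathway, was at 519, 617, and 420.2 normalized CPM with control siRNA, at 528, 512, and 448 after Chd8 siRNA, and at 399.5, 445, and 425 after Tsc2 siRNA. Control library 3 was as low as the Tsc2 siRNA libraries, so that these groups overlapped. The log2 fold change of Ptges was −0.28 for Tsc2 siRNA (SE 0.09, FDR 0.227, and −0.17 without control siRNA library 2) and −0.05 for Chd8 siRNA (SE 0.09, FDR 0.868). Every Tsc2 siRNA library was below every Chd8 siRNA library for Ptges, alone among the 8 enzyme genes, as were 4.02% of all genes tested, with a log2 fold change of −0.23 (SE 0.09, FDR 0.354).

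Acod1 stayed at the same level in all groups within the spread of the libraries. It was at 3466, 4559.8, and 3735 normalized CPM with control siRNA, at 3764, 4079.8, and 3903 after Chd8 siRNA, and at 3383, 4287, and 3528 after Tsc2 siRNA. All 3 groups overlapped. Its log2 fold change with the block was 0.01 for Chd8 siRNA (SE 0.06, FDR 0.973) and −0.07 for Tsc2 siRNA (SE 0.06, FDR 0.772). Of the 16273 genes tested, 7.75% had a lower SD of log2 level over the 9 libraries than Acod1, whereas 59.8% had a lower SD than Nos2.

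Because Acod1 was abundant and varied little, the other inducible enzymes were also expressed as a ratio to it within each library, which removes the library scaling. The log2 ratio of Nos2 to Acod1 was −2.14 ± 0.29 in control siRNA, −2.53 ± 0.28 in Chd8 siRNA, and −2.87 ± 0.47 in Tsc2 siRNA libraries (SD, n = 3). The ranges of Tsc2 siRNA and control siRNA overlapped for this ratio (exact permutation p = 0.2), through Tsc2 siRNA library 1 at −2.33. Within numbers 1, 2, and 3, the ratio differed by −0.21, −0.78, and −1.18. The log2 ratio of Ptgs2 to Acod1 was 0.11 ± 0.09, −0.06 ± 0.19, and −0.21 ± 0.14 in the same order. Here the Tsc2 siRNA libraries, between −0.31 and −0.05, did not overlap with the control siRNA libraries, between 0.03 and 0.21 (exact permutation p = 0.1, and 0.72 after adjustment over 24 ratio tests). The ratio of Ptges to Ptgs2 was −3.03 ± 0.29, −2.93 ± 0.32, and −2.92 ± 0.13 on the log2 scale, with overlapping groups.

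**Figure D3:**
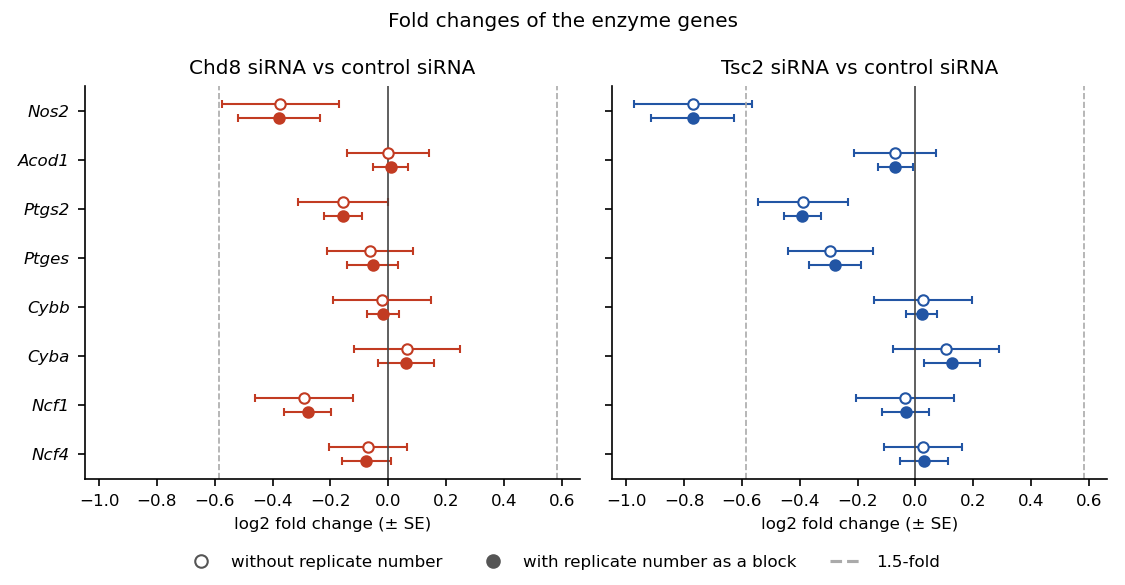
Log2 fold change (± SE) of the 8 tested enzyme genes for each knockdown against control siRNA, without (open) and with (filled) the replicate number as a block, with dashed lines at 1.5-fold. For Tsc2 siRNA, Nos2 lies at −0.77 beyond the dashed line and Ptgs2 at −0.39 inside it, and the oxidase subunits lie between −0.04 and 0.13.

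The NADPH oxidase subunits differed little between the groups. Cybb, the catalytic subunit, was at 2146, 2785, and 2674 normalized CPM with control siRNA, at 2148, 2724, and 2623 after Chd8 siRNA, and at 2060.5, 2907, and 2785 after Tsc2 siRNA. Libraries with the number 1 were the lowest in every group, and the groups overlapped fully. The log2 fold change of Cybb was −0.02 for Chd8 siRNA (SE 0.05, FDR 0.929) and 0.02 for Tsc2 siRNA (SE 0.05, FDR 0.940). Cyba, its membrane partner, was between 90.6 and 131 with control siRNA, between 98.0 and 145 after Chd8 siRNA, and, as the narrowest range, between 112 and 123 after Tsc2 siRNA. Ncf4, the cytosolic subunit that binds phosphoinositides, was between 81.6 and 96.3, between 71.4 and 94.5, and between 84.6 and 95.9 normalized CPM in the same order. For these 2 genes the log2 fold changes with the block were between −0.08 and 0.13, with FDRs of 0.731 or more against control siRNA.

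Ncf1, the cytosolic organizer subunit, was lower in Chd8 siRNA libraries at each replicate number without being called. It was at 229, 331, and 302 normalized CPM with control siRNA, at 213, 257, and 235 after Chd8 siRNA, and at 247, 336, and 258 after Tsc2 siRNA. The groups overlapped, because control library 1 was lower than Chd8 siRNA libraries 2 and 3. With the block, the log2 fold change of Ncf1 for Chd8 siRNA was −0.28 (SE 0.08) with an FDR of 0.123 in edgeR, 0.0312 in DESeq2, and 0.0577 in limma-voom. For Tsc2 siRNA it was −0.03 (SE 0.08, FDR 0.934), and between the knockdowns 0.25 (SE 0.08, FDR 0.255). Relative to Cybb within a library, the log2 ratio of Ncf1 was −3.15 ± 0.08 in control siRNA, −3.41 ± 0.07 in Chd8 siRNA, and −3.20 ± 0.20 in Tsc2 siRNA libraries. The Chd8 siRNA libraries did not overlap with the control libraries in this ratio (exact permutation p = 0.1, adjusted 0.72). Of the 7 annotated transcripts of Ncf1, 1 held 91.2% of its counts. Ncf1 overlaps with Gtf2ird2 and Cyba with Gm20388, both on the opposite strand, and Ptges overlaps with Gm13400 on the same strand. Whether strand was used in the counting is not given in the sources used here, and the effect of these overlaps on the counts was not tested.

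**Figure D4:**
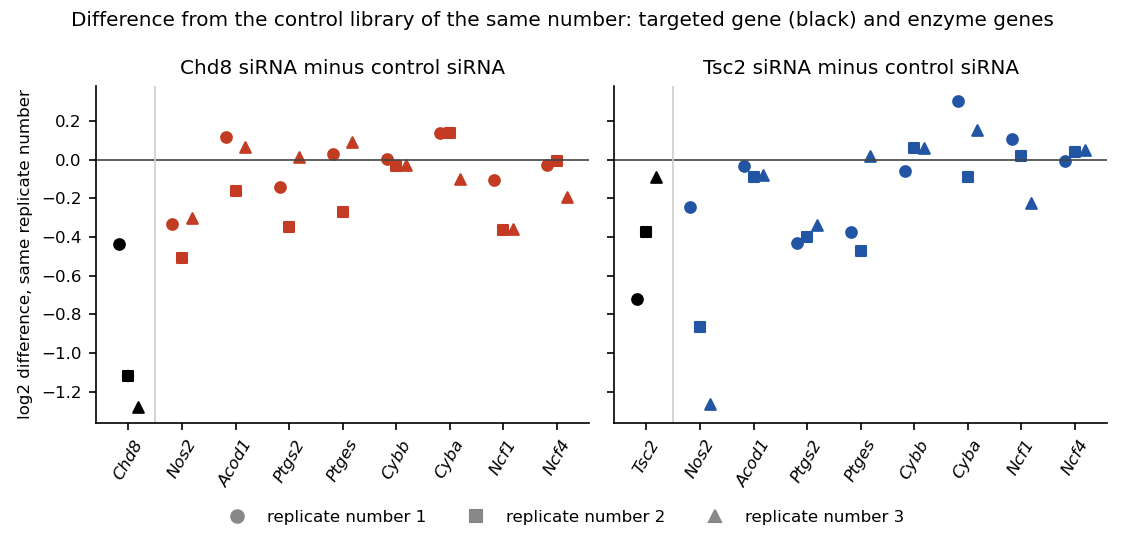
Log2 difference of normalized CPM between each knockdown library and the control library of the same replicate number, for the targeted gene in black and the 8 tested enzyme genes in colour, with circles, squares, and triangles for numbers 1, 2, and 3. For Tsc2 siRNA, the differences of Nos2 are −0.24, −0.86, and −1.26 and those of Tsc2 are −0.72, −0.38, and −0.09, while the differences of Ptgs2 lie between −0.43 and −0.34.

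Across all 8 enzyme genes, the block gave a median log2 fold change of −0.06 with Chd8 siRNA and −0.05 with Tsc2 siRNA, beside −0.02 and −0.01 over all genes tested. Estimates were negative for 6 of 8 genes with Chd8 siRNA and for 5 of 8 with Tsc2 siRNA, where 52.3% and 51.7% of all genes had a negative estimate. Single transcripts gave no further call. Of 34 transcripts of the 9 genes, 29 were tested, among 41633 tested in all, and 0 were called, without or with the block. Over all transcripts 0 were called with edgeR in the knockdown comparisons and 360 with DESeq2, and 1384 and 1177 had an unadjusted p under 0.05 for Chd8 and Tsc2 siRNA. The leading transcript held 97.1% of the counts of Nos2, 99.9% of Ptgs2, 98.7% of Cybb, 85.0% of Ptges, and 80.0% of Ncf4.

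Means differed more between replicate numbers than between siRNA groups for Acod1, Cybb, Cyba, Ncf1, and Ncf4. The share of all genes with this order was not counted. A test of the number in the fit with siRNA passed an FDR of 0.05 for 25.0% of all genes and for 5 of the 8 enzyme genes. These were Cybb (FDR 9.89e-05), Ptgs2 (0.00303), Ncf1 (0.00403), Acod1 (0.00485), and Cyba (0.0110). Cybb averaged 2118 normalized CPM at number 1, 2805 at number 2, and 2694 at number 3, a 1.32-fold range, whereas its group means spanned 1.03-fold. Cyba, Ncf1, and Acod1 likewise had wider ranges between numbers, 1.32-, 1.34-, and 1.22-fold, than between groups, 1.08-, 1.22-, and 1.05-fold. For Nos2 the order was reversed, with 1.21-fold between numbers (FDR 0.384) and 1.70-fold between groups. Ptgs2 spanned 1.24-fold between numbers and 1.31-fold between groups, and Ptges 1.22-fold and 1.23-fold.

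Markers of other cells also varied between libraries. The 8 astrocyte markers summed to between 14.6 and 106 normalized CPM with control siRNA, 13.6 and 47.1 after Chd8 siRNA, and 11.99 and 51.0 after Tsc2 siRNA. Fibroblast and mural cell markers summed to between 13.5 and 141, 12.9 and 113, and 11.2 and 96.1 in the same order, and 1 of them, Col1a1, was called lower after Chd8 siRNA. Of the 12 microglial markers 11 were tested and 0 were called with the block, although Aif1 passed the FDR for Tsc2 siRNA (0.53, FDR 0.0452, under 1.5-fold). The sums of these markers were between 2438 and 3067, 2678 and 3412, and 2999 and 3238, with overlap. The sums of the oligodendrocyte lineage markers, between 11.8 and 27.4 over all libraries, overlapped as well. Groups stood apart for 2 lists. Neuronal markers summed to between 3.01 and 3.63 after Tsc2 siRNA against 4.56 to 16.6 with control siRNA. Map2 was the highest of them and went from a mean of 6.34 to 2.07 (−1.25, FDR 0.232, not called). Snap25, the next highest, had a mean of only 0.754 with control siRNA. Endothelial markers summed to between 158 and 173 after Chd8 siRNA against 184 to 235. Of the endothelial markers, Flt1 went from a mean of 154 to 111 (−0.46, FDR 0.0170, under 1.5-fold) and Pecam1 from 7.38 to 6.50, whereas Kdr, at 39.7 and 44.1, and Cdh5, at 2.26 and 3.56, were not lower. The part of these markers in the values of the enzyme genes was not tested.

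The 5 lists around these enzymes held 96 genes, of which 82 passed the filter. With the block, 2 of the 82 were called for Chd8 siRNA, 1 for Tsc2 siRNA, and 1 between the knockdowns, beside 0.535%, 0.387%, and 0.221% of all genes tested. In the nitric oxide and arginine list, 0 of 16 tested genes were called in either direction. Odc1, ornithine decarboxylase, which starts polyamine synthesis from the product of arginase, was at 145, 169.6, and 175 normalized CPM in control siRNA and at 101, 132, and 142 in Tsc2 siRNA libraries, without overlap. Its log2 fold change was −0.40 (SE 0.08, FDR 0.0452), short of 1.5-fold, and with a library left out the FDR was between 0.0835 and 0.303, over 0.05 in 6 of 6 fits. Between Tsc2 and Chd8 siRNA, Odc1 had −0.54 (FDR 0.0156), also short of 1.5-fold, with an FDR under 0.05 in 3 of 6 fits with a library left out (0.0157 to 0.172). Slc7a2, a transporter that imports arginine, had −0.41 for Tsc2 siRNA (SE 0.10, FDR 0.101). In the list of the NADPH oxidase and its regulators, 0 of 11 tested genes were called, and the estimates with the lowest p against control siRNA were those of Hvcn1, a proton channel, at −0.43 (SE 0.14, FDR 0.166), and Vav1, an activator of Rac, at −0.26 (SE 0.08, FDR 0.127), both for Chd8 siRNA.

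Among genes of eicosanoid synthesis, removal, and receptors, 1 of 20 tested genes was called, Hpgd, which encodes the dehydrogenase that inactivates prostaglandins. Hpgd was at 31.4, 32.7, and 29.1 normalized CPM in control siRNA, at 46.3, 51.7, and 59.0 in Chd8 siRNA, and at 29.7, 30.7, and 31.6 in Tsc2 siRNA libraries. All Chd8 siRNA libraries were above all others, an order whose share among all genes was not counted. Hpgd rose by 0.75 on the log2 scale in Chd8 siRNA-treated microglia (SE 0.11, FDR 0.00689), and was −0.02 for Tsc2 siRNA (SE 0.11, FDR 0.975). The call held in 4 of 6 fits with a library left out, and was lost without Chd8 siRNA library 3 or control siRNA library 3, with an FDR of up to 0.0876. Tsc2 siRNA against Chd8 siRNA gave −0.77 (FDR 0.0145). Pla2g4a, the phospholipase that releases arachidonic acid, had −0.55 for Chd8 siRNA (FDR 0.0301), under 1.5-fold, and −0.49 for Tsc2 siRNA (FDR 0.0688), a gene named after its value was seen. The list had a median of −0.27 with Chd8 siRNA and of 0.01 with Tsc2 siRNA, beside −0.02 and −0.01 over all genes tested, and 10 of its 20 tested genes had means under 5 normalized CPM in control siRNA.

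In the list of itaconate and the citrate cycle around it, 0 of 20 tested genes were called, and the medians were 0.14 for Chd8 siRNA and 0.06 for Tsc2 siRNA. Idh3b, a subunit of isocitrate dehydrogenase, had 0.41 (SE 0.12, FDR 0.127) and 0.47 (SE 0.12, FDR 0.108). Every knockdown library was above every control library, and the share of all genes with this order was not counted. Sdhc, a subunit of succinate dehydrogenase, the enzyme that itaconate inhibits, had 0.46 for Chd8 siRNA (SE 0.12), with an FDR of 0.0876 in edgeR, 0.0138 in DESeq2, and 0.0464 in limma-voom. DESeq2 with the block also gave an FDR under 0.05 for Idh3b (0.0270 and 0.0222), for Vav1 with Chd8 siRNA (0.0317), and for Slc7a2 with Tsc2 siRNA (0.0117), where limma-voom gave between 0.0525 and 0.0720. In the list of LPS response genes, 1 of 15 was called lower in Chd8 siRNA and 1 higher in Tsc2 siRNA. Cxcl1, a neutrophil-attracting chemokine, was at 72.1, 174, and 557 normalized CPM in control siRNA and at 45.0, 108, and 252 in Chd8 siRNA libraries, and fell by 0.84 on the log2 scale (SE 0.16, FDR 0.0189). Il12b, a subunit of interleukin-12, was at 70.8, 479, and 527 in control siRNA and at 126, 862, and 682 in Tsc2 siRNA libraries, and rose by 0.69 (SE 0.10, FDR 0.00918). For both genes the groups overlapped, and number 1 was the lowest in each group. Their calls were lost with single libraries left out, that of Cxcl1 in 4 of 6 fits, without Chd8 siRNA library 2 or 3 or control siRNA library 1 or 3, and that of Il12b in 2 of 6, without Tsc2 siRNA library 2 or control siRNA library 2. Cxcl10, an interferon-induced chemokine, also passed the FDR for Chd8 siRNA, in the other direction from Cxcl1, at 0.33 (SE 0.06, FDR 0.0173), under 1.5-fold, and was named after its value was seen.

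**Figure D5:**
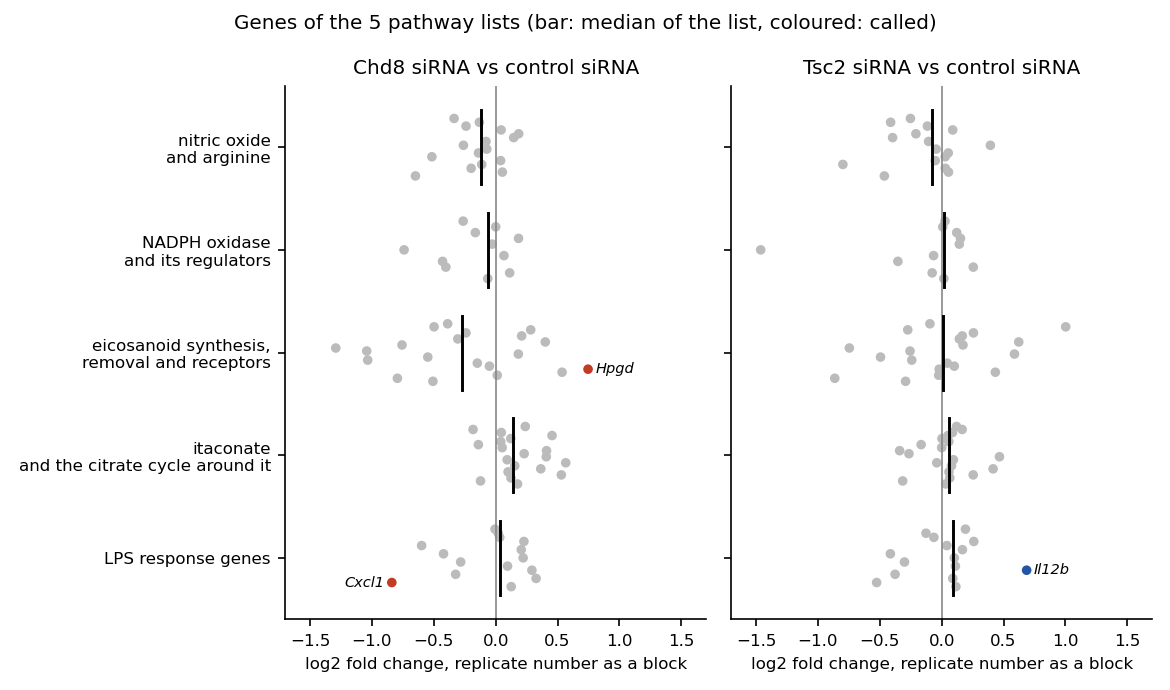
Log2 fold change with the replicate block of every tested gene of the 5 lists, for each knockdown against the controls, with a bar at the median of each list and called genes in colour. Hpgd at 0.75 and Cxcl1 at −0.84 are called for Chd8 siRNA, and Il12b at 0.69 for Tsc2 siRNA.

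The genes with patterns most like each enzyme gene were found by the SD of the log2 ratio over the 9 libraries, among 7829 genes with a mean of at least 5 normalized CPM. Nos2 had the least close partners, Procr with an SD of 0.12 and Mfap3l with 0.16, beside an SD of 0.42 of Nos2 itself. Procr, the endothelial protein C receptor, had log2 fold changes of −0.92 for Tsc2 siRNA and −0.49 for Chd8 siRNA, and Mfap3l of −0.82 and −0.52. Fold changes near those of Nos2 follow from choosing genes by their likeness to it in the same libraries. Close genes were Milr1 and Pml for Acod1 (SD 0.04 and 0.05), Npl and Zdhhc20 for Ptgs2 (0.10 and 0.12), Thoc6 and Chuk for Ptges (both 0.11), and Arfgef1 for Cybb (0.05). For Cyba the ribosomal protein gene Rplp1 was close (0.07), for Ncf1 Cyb5r3 and Zmynd15 (0.09 and 0.10), and for Ncf4 Pcbp1 and Diaph1 (both 0.05). Among the enzyme genes, Acod1 and Cybb were most alike, with an SD of 0.14, and Nos2 and Cyba least, with 0.54. The SD of Acod1 itself was also 0.14. By closeness among all genes compared, Cybb ranked only 521 for Acod1, and Acod1 only 316 for Cybb. These values describe 9 libraries that share their scaling and their replicate numbers.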

How the data were processed

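Total RNA of 9 primary microglia libraries was sequenced, from a SMARTer stranded kit per the labels and an Illumina total RNA kit per the methods. The submitters' processing notes name Salmon 0.14.1 and mm10, and the authors deposited estimated counts per transcript, neither normalized nor pooled. Which annotation release was used is not given in the sources used here. GENCODE release 21 (GRCm38, the assembly of mm10) assigned 139852 of the 140948 transcripts to a gene, and the 1096 others held 0.27% of the counts. Counts were summed over transcripts and rounded. Totals of 16913005 to 33213477 counts per library set the precision, and floors of 3 counts cover counting error only.

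Libraries were grouped by the siRNA in the labels. Genes were tested with edgeR 4.0.16 in R 4.3.3 (filterByExpr, TMM, quasi-likelihood test, Benjamini-Hochberg adjustment), with DESeq2 1.42.0 and limma 3.58.1 as alternatives, and single genes with two-sided exact permutation tests on log2 CPM with a pseudocount of 0.5. TPM were computed from annotated transcript lengths. Ensembl IDs and symbols came from GENCODE. Tables used Python 3.11.15, pandas 2.3.3, and matplotlib 3.10.9. The tests were tried on simulated data.

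Per the methods, replicates are cultures of different brains, but the methods do not say that libraries with one number share a brain. The pairing comes from the numbers in the labels. Deviations from the group means correlated across genes between libraries of the same number with r between 0.244 and 0.521 (9 pairs, mean 0.370), and between other libraries with a mean of −0.184 (18 pairs); genes are not independent replicates. Deviations within a group cancel out, so that the negative mean of the other pairs follows from the positive mean and adds no evidence. Because of the correlations at the same number, the number was also fitted as a block. The p-values measure the spread between these libraries.

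The enzyme genes and all gene lists were chosen with earlier results of these data known. Named besides them were each list's called genes, or else the 2 with the lowest p with the block, and the 2 genes nearest in pattern to each enzyme gene. A few of these and of the list genes are not reported here. The alternatives were other scalings, count filters, and tools, fits of 6 libraries, the most abundant transcript only, no fold threshold, rounding before summing, and each library left out.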

Additional observations from a re-analysis of the deposited data

Results flagged for a closer look

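Hpgd differed between the knockdowns. With the replicate number as a block, Tsc2 siRNA against Chd8 siRNA gave a log2 fold change of −0.77 (FDR 0.0145 in edgeR), and the difference was called in 2 of 6 fits with a library left out; the call was lost without Chd8 siRNA library 2 or 3 and without Tsc2 siRNA library 2 or 3.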

How the results depend on the processing

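Without the block, 0 genes were called, but DESeq2 called 9 for Chd8 siRNA, 6 for Tsc2 siRNA, and 5 between the knockdowns, and fits without a filter on low counts called 2, 1, and 0. The replicate block raised the calls to 87, 63, and 36. It was fitted because libraries with the same number deviated together, and a shared origin of such libraries is not stated. Other tools, filters, scalings, and thresholds with the block were added after the data were seen. In the same order, 169, 104, and 61 genes passed without a fold threshold, 133, 115, and 103 with DESeq2, and 228, 205, and 176 without a filter, and limma-voom called 140 for Chd8 siRNA and 58 between the knockdowns. With each library left out, the blocked calls ranged from 20 to 81, from 7 to 131, and from 4 to 130. For the comparisons with control siRNA, the lowest counts came without control siRNA library 3, and between the knockdowns without Chd8 siRNA library 3. The highest came without control siRNA library 1 for Chd8 siRNA and without Tsc2 siRNA library 1 for the other comparisons. Leaving out number 2 or 3 of either group moved the count by over 1.5 times in all 3 comparisons. So did Tsc2 siRNA library 1 for Tsc2 siRNA and between the knockdowns, and Chd8 siRNA library 1 between the knockdowns. Single transcripts went from 0 calls to 360 with DESeq2. The cause of these shifts was not tested.

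The log2 fold change of Nos2 for Tsc2 siRNA, −0.77, was called with the block in edgeR and not in DESeq2 (−0.77). That of Acod1 for Chd8 siRNA, −0.0018 without the block, became 0.0101 with DESeq2 and with DESeq2 size factors, 0.0095 with limma-voom, 0.0073 without a filter, 0.0085 with the block, and −0.035 with the block and no scaling. With single libraries left out, estimates near 0 changed sign. Without the block the ranges for Chd8 siRNA were −0.082 to 0.12 (Acod1), −0.19 to 0.082 (Ptges), −0.13 to 0.076 (Cybb), −0.14 to 0.22 (Cyba), and −0.16 to 0.043 (Ncf4). For Tsc2 siRNA they were −0.18 to 0.056 (Acod1), −0.077 to 0.17 (Cybb), −0.0087 to 0.26 (Cyba), −0.18 to 0.081 (Ncf1), and −0.025 to 0.096 (Ncf4), and between the knockdowns −0.046 to 0.19 (Cybb), −0.054 to 0.25 (Cyba), and −0.0044 to 0.19 (Ncf4). With the block they were −0.039 to 0.088 (Acod1), −0.16 to 0.056 (Ptges), −0.051 to 0.0017 (Cybb), and −0.033 to 0.15 (Cyba) for Chd8 siRNA, −0.11 to 0.043 (Ncf1) and −0.0104 to 0.061 (Ncf4) for Tsc2 siRNA, and −0.019 to 0.19 (Cyba) between the knockdowns. None of these estimates was called in any fit. The block changed no other call of an enzyme gene than that of Nos2.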
